A study of Mus musculus with 48 samples.

Results

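Hepatic expression was examined for a genotype difference that changed with housing temperature, in mice that carried or lacked angiotensinogen in hepatocytes. All 16 liver libraries of a series of 48 were used, which also held 16 libraries of brown adipose tissue (BAT) and 16 of epididymal white adipose tissue (eWAT). The animals were male littermates, hepAGT+/+ (WT) or hepAGT-/- (KO), and were housed either at 20 to 22 °C, called room temperature (RT) here, or thermoneutrally (TN) at 30 °C. All of them, controls included, ate a Western diet with 21% milk fat and 0.2% cholesterol over 12 weeks, so no chow-fed group entered the contrast. The 4 groups, WT RT, KO RT, WT TN and KO TN, had 4 libraries each, which the labels number as biological replicates. Age at the start and the promoter that drives the deletion are not given in the sources used here. The quantity reported is the interaction on the log2 scale, KO minus WT at TN less KO minus WT at RT. A positive value means that KO stood higher relative to WT at TN than at RT, and a negative value the reverse.

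Angiotensinogen is the secreted precursor from which renin releases angiotensin I, the substrate that angiotensin-converting enzyme turns into angiotensin II. Hepatocytes are the main source of the circulating protein. Mice kept at room temperature spend energy to hold body temperature, and thermoneutral housing removes most of that demand, which is why diet-induced fatty liver is often studied there. A factorial layout of this kind lets the temperature dependence of a deletion be read from a single contrast of 4 group means.

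Library totals ran from 23.7 to 36.5 megacounts. Replicates of a group differed by far more than counting noise, with a chi-square per gene of at least 44.2, so none was a repeat deposit of another. The tissue label held up: the sum of 9 hepatocyte markers was 51910 to 90460 CPM (counts scaled to a common library total) over the 16 libraries. By contrast, 8 markers of the exocrine pancreas summed to at most 1.24 CPM. Among them, Ctrb1, Cpa1 and Pnlip had 0 counts in every library, whereas Cela2a was at 0 in only 4 of the 16. Agt itself checked the genotype labels. At RT it was 336, 434, 424 and 276 CPM (replicates 11, 12, 15 and 18) in WT and 174, 202, 150 and 142 CPM (replicates 9, 10, 16 and 19) in KO. At TN it was 504, 371, 454 and 309 CPM (replicates 1, 6, 7 and 24) in WT and 164, 172, 125 and 207 CPM (replicates 2, 4, 5 and 22) in KO. Every KO library lay below every WT library, with KO minus WT at -1.14 at RT and -1.29 at TN, and the interaction was -0.16 (SE 0.25, 95% interval -0.68 to 0.36, adjusted p = 0.936, edgeR). The labels do not say which exons were removed, so the remaining reads in KO were not resolved further. CPM values of single genes carry edgeR's TMM scaling factors, and replicates keep the order given here for Agt throughout.

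No liver gene passed the test for the interaction. Of 17594 genes tested with edgeR's quasi-likelihood test, 0 (0%) had a Benjamini-Hochberg adjusted p under 0.05, and the lowest adjusted p was 0.399. At an unadjusted p under 0.05 there were 1290 genes (7.33%), against 880 that a uniform distribution of p-values gives. Of these, 737 (4.19%) had a positive and 553 (3.14%) a negative interaction. DESeq2, which was run without the filter on low counts, called 20 of 18244 genes (0.110%), 16 of them positive and 4 negative, and limma-voom called 0, with 1379 at an unadjusted p under 0.05. The same contrast also gave 0 genes (0%) in BAT and 0 (0%) in eWAT with edgeR. There, 1832 of 18032 genes (10.2%) in BAT and 1439 of 18933 (7.60%) in eWAT had an unadjusted p under 0.05, and DESeq2 called 25 and 10. All single genes below are therefore given as values, and none of them as a call by edgeR.

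The precision of the estimates depended on abundance. The median 95% interval reached 0.83 log2 units to either side of the estimate, a 1.78-fold change. These intervals are not adjusted for the number of genes, so an interaction larger than its half-width could still miss the adjusted threshold. For genes between 1 and 10 CPM the median half-width was 1.16, a 2.23-fold change, for genes between 10 and 100 CPM it was 0.50, and above 100 CPM it was 0.42, a 1.33-fold change. Estimates also drifted with abundance. Their median was 0.28 for genes under 1 CPM, 0.13 for genes between 1 and 10 CPM and -0.10 for those above 100 CPM, and 0.01 over all genes. Immune and proliferation genes were mostly in the lower range, with a median level of 5.08 CPM for macrophage and inflammation genes and 2.54 CPM for cell cycle genes. Enzymes of hepatocyte metabolism were in the upper range, with 251 CPM for lipogenesis and 283 CPM for bile acid genes.

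**Figure D1:**
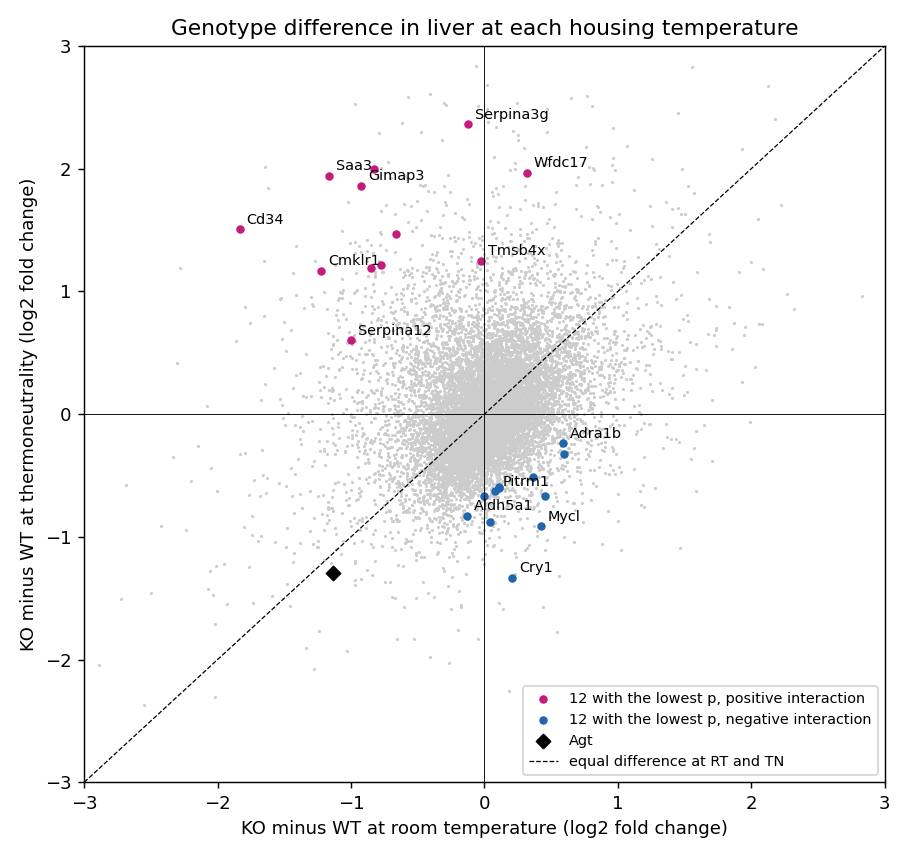
KO minus WT at RT (horizontal axis) against KO minus WT at TN (vertical axis), both as log2 fold changes from edgeR, for 13373 liver genes that averaged 1 CPM or more. Another 24 genes lie outside the axes. The vertical distance from the dashed line is the interaction. The 12 genes with the lowest p and a positive interaction (magenta) and the 12 with a negative one (blue) lie on opposite sides of the line, and Agt (black) lies close to it.

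The gene with the lowest p was Cmklr1 (chr5:113612354-113650426, minus strand, GRCm38), which encodes the receptor for chemerin on macrophages, dendritic cells and natural killer cells. It was 2.79, 3.19, 4.25 and 4.59 CPM in WT RT and 1.62, 1.90, 1.19 and 1.62 CPM in KO RT. In the TN mice it was 2.02, 3.12, 1.49 and 3.26 CPM in WT and 4.93, 6.07, 6.44 and 4.85 CPM in KO. The order of the genotypes was turned around without overlap: each KO library was below each WT library at RT and above it at TN. The interaction was 2.39 (SE 0.45, 95% interval 1.46 to 3.34, adjusted p = 0.399 by edgeR, 0.000303 by DESeq2).

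Several of the 12 leading positive genes belong to leukocytes. Wfdc17 (chr11:83703991-83706268, plus strand), a small secreted protein of activated macrophages, was 14.4, 16.6, 10.8 and 12.7 CPM in WT RT and 14.6, 18.1, 14.2 and 21.0 CPM in KO RT. The TN values were 13.5, 9.71, 8.25 and 14.1 CPM in WT but 27.1, 64.0, 52.7 and 34.2 CPM in KO. The RT groups overlapped, and the KO TN libraries were above all others. Its interaction was 1.65 (SE 0.34, adjusted p = 0.399 by edgeR, 0.0149 by DESeq2).

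Tmsb4x (chrX:167207093-167209315, minus strand), thymosin beta 4, binds actin monomers and is abundant in leukocytes and other non-parenchymal cells. It was within 98.9 to 153 CPM in all 12 libraries of WT RT, KO RT and WT TN. In KO TN it was 198, 363, 427 and 201 CPM, so that all 4 were above the other groups and replicates 4 and 5 stood further above. The interaction was 1.28 (SE 0.28, adjusted p = 0.399). Gimap3, a small GTPase of lymphocytes, had the same 2 libraries on top: 3.94, 10.8, 11.7 and 4.14 CPM in KO TN against 0.61 to 4.80 CPM elsewhere. Its interaction was 2.79 (SE 0.61), with KO minus WT at -0.93 at RT and 1.86 at TN.

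Rgs2, a regulator that shortens G protein signalling from receptors such as the angiotensin receptor, was 4.03, 6.42, 8.57 and 5.14 CPM in WT RT and 2.01, 4.94, 2.83 and 4.31 CPM in KO RT. In WT TN it was 5.91, 5.42, 4.91 and 3.65 CPM, and in KO TN 8.14, 15.3, 15.6 and 7.12 CPM. The RT groups overlapped and the TN groups did not, and the interaction was 2.00 (SE 0.46). The remaining leukocyte genes had the same layout on average, with the KO mean below WT at RT and above it at TN. Interactions were 2.83 (SE 0.63) for Ptpn18, a tyrosine phosphatase of blood cells, 2.14 (SE 0.51) for Klra2, a receptor of the Ly49 family, and 2.04 (SE 0.49) for Slfn2, a Schlafen protein of T cells and myeloid cells. Cd34, a sialomucin of endothelial and progenitor cells, had the widest interval. It was 1.73 to 2.36 CPM in WT RT, 0.08 to 1.23 in KO RT, 0.67 to 1.60 in WT TN and 1.88 to 4.76 in KO TN, giving 3.34 (95% interval 1.69 to 5.01).

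The other leading positive genes were a serum amyloid A and 2 members of the serpin family. Serpina12 (chr12:104028769-104044443, minus strand) encodes vaspin, a serine protease inhibitor known as an insulin-sensitising adipokine. It was 103, 77.4, 80.3 and 175 CPM in WT RT and 63.4, 44.0, 63.8 and 46.3 CPM in KO RT. Thermoneutral libraries held 61.6, 54.2, 56.9 and 69.4 CPM in WT and 87.7, 129, 75.2 and 75.0 CPM in KO. As with Cmklr1, Gimap3 and Cd34, the genotypes did not overlap at either temperature and stood in opposite order. The interaction was 1.60 (SE 0.33, adjusted p = 0.399 by edgeR, 0.00698 by DESeq2) and it was 1.44 without KO TN replicates 4 and 5.

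Saa3 (chr7:46711998-46715700, minus strand), a serum amyloid A made by macrophages and other cells in inflammation, was 9.00, 15.8, 36.0 and 10.1 CPM in WT RT and 8.25, 5.55, 9.46 and 8.39 CPM in KO RT. Under TN housing it was 4.15, 7.69, 5.22 and 7.04 CPM in WT and 11.9, 42.5, 21.3 and 17.0 CPM in KO. The TN groups were apart, whereas at RT the lowest WT library lay within the KO range and replicate 15 stood above the rest. The interaction was 3.11 (SE 0.64, adjusted p = 0.399 by edgeR, 0.000303 by DESeq2). Serpina3g, an interferon-responsive protease inhibitor, was between 1.20 and 4.96 CPM outside KO TN and 5.20, 13.0, 16.2 and 4.82 CPM in KO TN. Its interaction was 2.49 (SE 0.54), nearly all of it from the TN mice, since KO minus WT was -0.13 at RT.

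**Figure D2:**
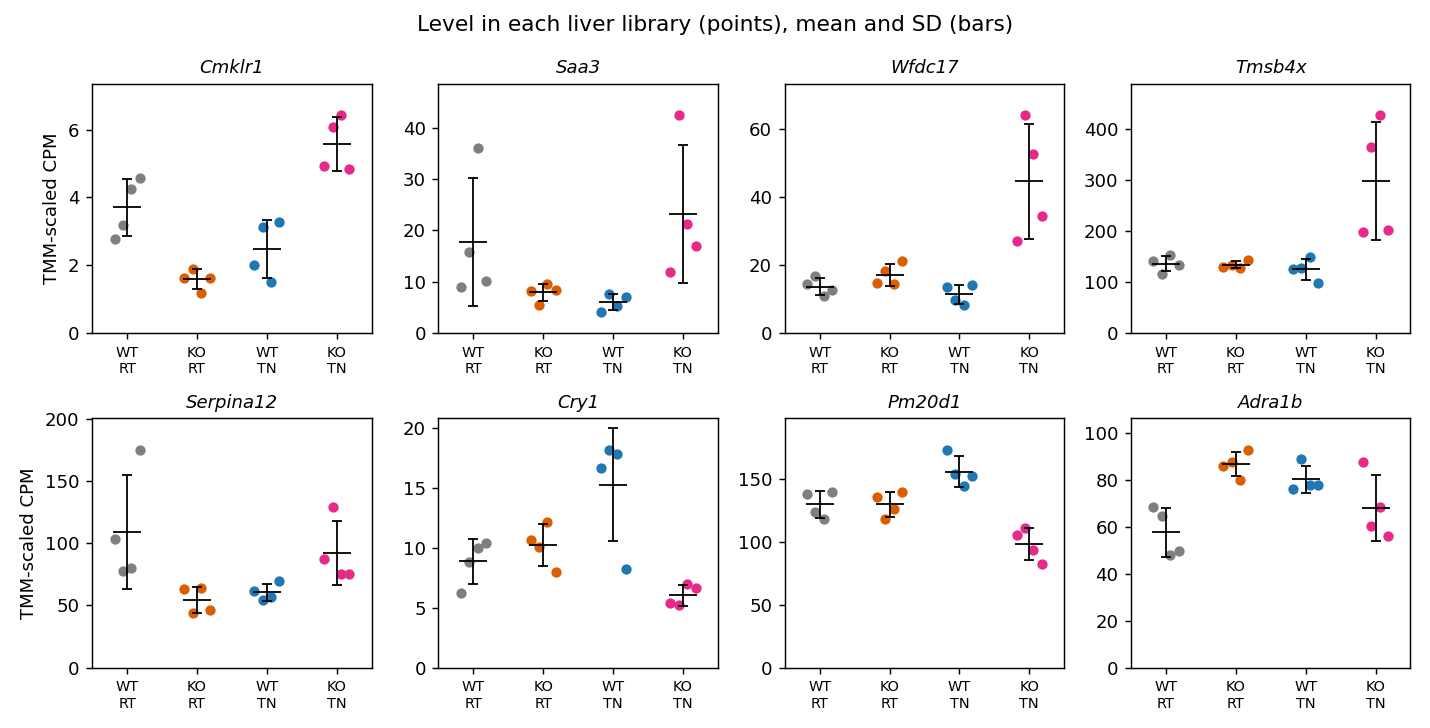
TMM-scaled CPM of 8 genes in each of the 16 liver libraries (points), with the mean and SD of each group (bars, n = 4). Cmklr1, Saa3 and Serpina12 have the genotypes in opposite order at RT and TN, Wfdc17 and Tmsb4x are highest in KO TN, and Cry1 and Pm20d1 have their lowest mean there.

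Among negative interactions, the gene with the lowest p was Cry1 (chr10:85131700-85185064, minus strand), a repressor of the circadian clock. It was 6.27, 8.82, 9.97 and 10.4 CPM in WT RT and 10.7, 10.1, 12.2 and 8.00 CPM in KO RT. At TN it was 16.7, 18.2, 17.9 and 8.26 CPM in WT and 5.36, 5.25, 6.98 and 6.62 CPM in KO. The RT groups overlapped, and all KO TN libraries were below all WT TN libraries, of which replicate 24 was the lowest. The interaction was -1.54 (SE 0.34, adjusted p = 0.399 by edgeR, 0.0354 by DESeq2), and it was -1.55 without KO TN replicates 4 and 5.

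Mycl, a transcription factor of the MYC family, was 6.30, 5.55, 6.12 and 10.2 CPM in WT RT and 10.4, 8.49, 8.49 and 10.2 CPM in KO RT. In the TN mice it was 13.0, 12.0, 17.7 and 16.1 CPM in WT and 7.21, 7.08, 5.98 and 11.0 CPM in KO. KO was thus higher on average at RT, with overlap, and lower without overlap at TN, with an interaction of -1.34 (SE 0.32). Adra1b, the alpha-1B adrenergic receptor through which catecholamines drive hepatic glycogen breakdown, was 68.3, 64.5, 48.0 and 49.8 CPM in WT RT and 86.1, 87.8, 80.2 and 93.0 CPM in KO RT. In WT TN it was 76.0, 88.9, 77.95 and 78.05 CPM, and in KO TN 87.6, 60.3, 68.3 and 56.1 CPM. Here the separation was at RT, where KO lay above WT without overlap, and the TN groups overlapped. Its interaction was -0.83 (SE 0.20). St3gal1, a sialyltransferase, had KO minus WT of 0.59 at RT and -0.32 at TN (interaction -0.92, SE 0.23), and its groups overlapped at RT, where KO replicate 19 was 53.4 CPM against 50.3 to 56.9 CPM in WT.

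For a further set the genotypes were level at RT and KO was lower at TN. Pm20d1, a secreted enzyme that makes N-acyl amino acids, was 138, 124, 118 and 140 CPM in WT RT and 136, 118, 126 and 140 CPM in KO RT. The TN values were 173, 154, 145 and 152 CPM in WT and 106, 111, 93.3 and 82.7 CPM in KO. The KO TN libraries were the lowest of all 16 and the WT TN libraries the highest. KO minus WT was 0.00 at RT and -0.67 at TN (interaction -0.67, SE 0.17). Other genes also had overlapping genotypes at RT and KO below WT without overlap at TN. These were Pitrm1, a mitochondrial peptidase (interaction -0.71, SE 0.18), Ugt1a6b, a glucuronosyltransferase (-0.92, SE 0.23), and Ahctf1, a nuclear pore protein (-0.70, SE 0.18). They also included Col4a3bp, which carries ceramide between membranes (-0.71, SE 0.19), and Aldh5a1, the succinate semialdehyde dehydrogenase of GABA breakdown (-0.70, SE 0.19). Sall1, a zinc finger transcription factor, and Nedd4l, a ubiquitin ligase of ion channels, had KO above WT at RT and below it at TN (-1.13, SE 0.28, and -0.88, SE 0.24).

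DESeq2 called 16 genes that had a mean of at least 1 CPM and an established symbol, and the other 4 did not meet both. The 16 included the first 11 of the positive genes above, Cry1, and also Plk4, Ifit3 and Srp54b. Plk4, the kinase that starts centriole duplication, had an interaction of 2.90 by edgeR (adjusted p = 0.443) and of 2.94 by DESeq2 (adjusted p = 0.0493). Srp54b, a copy of the signal recognition particle subunit Srp54, varied widely within groups. It was 0.06, 3.94, 0.21 and 0.37 CPM in WT RT, 4.63, 7.46, 2.12 and 0.73 CPM in KO RT, 3.93, 3.16, 0.17 and 5.24 CPM in WT TN and at most 0.20 CPM in KO TN. Low and high libraries thus occurred in both WT groups. Reads of Srp54b, and of the Saa, Serpina3, Klra, Gimap, Ifit, Ugt1a, Mup and globin families, could be split between near-identical copies, and these values are uncertain for that reason.

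The genes of macrophages and inflammation had positive interactions almost throughout. Of 25 tested, 24 were above 0 with a median of 1.24, where 50.6% of all genes were above 0 with a median of 0.01. An unadjusted p under 0.05 was reached by 7 of them, all positive, against 4.19% of all genes in that direction, and 0 had an adjusted p under 0.05. Lyz2, the lysozyme of myeloid cells, was 47.4, 63.2, 70.8 and 65.1 CPM in WT RT and 62.5, 67.6, 42.5 and 64.9 CPM in KO RT. In WT TN it was 63.7, 44.9, 53.5 and 46.3 CPM, and in KO TN 64.4, 162, 155 and 101 CPM. At TN the groups did not overlap, though KO TN replicate 2 was within 1 CPM of the highest WT library. The interaction of Lyz2 was 1.26 (SE 0.33). It was 1.39 (SE 0.40) for Vsig4 and 1.12 (SE 0.32) for Clec4f, both receptors of Kupffer cells, the resident macrophages of the liver, and 2.30 (SE 0.81) for Cxcl10, a chemokine that draws T cells.

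Interferon response genes also had positive interactions. All 25 tested were above 0, with a median of 0.90, and 8 had an unadjusted p under 0.05, against 4.19% of all genes. Ifit3, an antiviral protein induced by type I interferon, was 15.8, 21.5, 22.1 and 16.3 CPM in WT RT and 10.0, 14.3, 11.1 and 7.24 CPM in KO RT. Thermoneutral libraries held 14.7, 11.6, 16.7 and 12.3 CPM in WT and 18.9, 22.1, 45.6 and 13.6 CPM in KO. KO was below WT without overlap at RT, whereas at TN only KO replicate 22 lay within the WT range. The interaction was 1.69 (SE 0.41, adjusted p = 0.419 by edgeR, 0.0493 by DESeq2). Igtp, a GTPase induced by interferon gamma, averaged 101 CPM in KO TN with an SD of 105 (n = 4), against group means of 21.5 to 32.4 CPM elsewhere.

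Cell cycle genes, at low levels in this liver, had 23 of 25 members above 0, a median of 1.07, and 3 at an unadjusted p under 0.05, against the same 4.19%. These were Mcm3, Mcm4 and Mcm5, subunits of the replicative helicase. Mcm3 was 6.55, 6.93, 4.22 and 5.55 CPM in WT RT, 3.30, 3.03, 3.54 and 2.62 CPM in KO RT, 4.64, 4.19, 5.13 and 5.39 CPM in WT TN and 7.25, 7.27, 13.2 and 3.04 CPM in KO TN. At RT the genotypes were apart with KO lower, and at TN they overlapped. The interaction of Mcm3 was 1.56 (SE 0.45). Fibrosis and stellate cell genes had 22 of 23 above 0 with a median of 0.44 and 2 at an unadjusted p under 0.05, against 4.19% of all genes. These were Dcn, the collagen-binding proteoglycan decorin (0.68, SE 0.29), and Des, the stellate cell filament desmin (0.97, SE 0.47).

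Summed markers of leukocytes were higher on average in KO TN, and for macrophages, T and NK cells and B cells 2 of its libraries were above the rest. The 7 Kupffer and macrophage markers summed to 212, 391, 494 and 202 CPM in KO TN, against 181 to 216 in WT RT, 109 to 223 in KO RT and 129 to 212 in WT TN. All 7 had a positive interaction, as did 50.6% of all genes, and 3 of them an unadjusted p under 0.05, against 4.19% of all genes. All 7 are also members of the macrophage and inflammation list, so they add no separate evidence to it. The 7 T and NK cell markers summed to 4.63 to 27.0 CPM in KO TN and to at most 4.66 CPM elsewhere, and again all 7 were positive. In these low sums, between 0 and 4 of the 7 markers had no count in a library, and Ncr1, a defining receptor of NK cells, was at 0 in 8 of the 16. B cell markers summed to 14.8 to 34.3 CPM in KO TN and to 6.71 to 14.1 CPM elsewhere, with 3 of 5 positive. Neutrophil markers summed to 6.86, 9.25, 13.4 and 10.8 CPM in KO TN and to 2.70 to 5.38 CPM elsewhere, with no pair of libraries apart. Ly6g, the defining surface protein of neutrophils, was at 0 in all 16, and S100a8 and S100a9 are also in the acute-phase list below. In a bulk library, more cells of a type and more RNA per cell cannot be told apart.

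On the log2 scale the same contrast of group means was 1.15 for the macrophage sum, 1.97 for T and NK cells, 1.10 for B cells, 1.02 for neutrophils, 0.62 for stellate cells, 0.30 for sinusoidal endothelium, 0.09 for cholangiocytes and -0.12 for hepatocytes. It was 1.30 for the adipocyte list, whose sum was lower on average in KO at both temperatures, 6.36 to 61.2 against 75.5 to 151 CPM at RT and 41.1 to 204 against 186 to 251 CPM at TN. Adipoq, which defines adipocytes, was at 0 in 15 of the 16 libraries. Plin1, Lep and Retn were at 0 in 13, 14 and 9, and of this list only Cfd and Cidec had counts in every library. Cidec is also in the lipid droplet list, and all stellate cell markers are in the fibrosis list. Replicates 4 and 5 of KO TN had the highest macrophage, T and NK cell and B cell sums of all libraries. For red blood cells this contrast was 0.62, with KO minus WT at -0.523 at RT and 0.095 at TN. The 5 red blood cell markers summed to 136 to 163 CPM in WT RT and 86.4 to 109 CPM in KO RT, without overlap. At TN the sums were 95.2 to 136 CPM in WT and 95.6 to 169 CPM in KO. Of the 5, the 4 globin genes had a positive interaction with an unadjusted p under 0.05 (Hbb-bt 2.20, SE 0.67), against 4.19% of all genes.

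**Figure D3:**
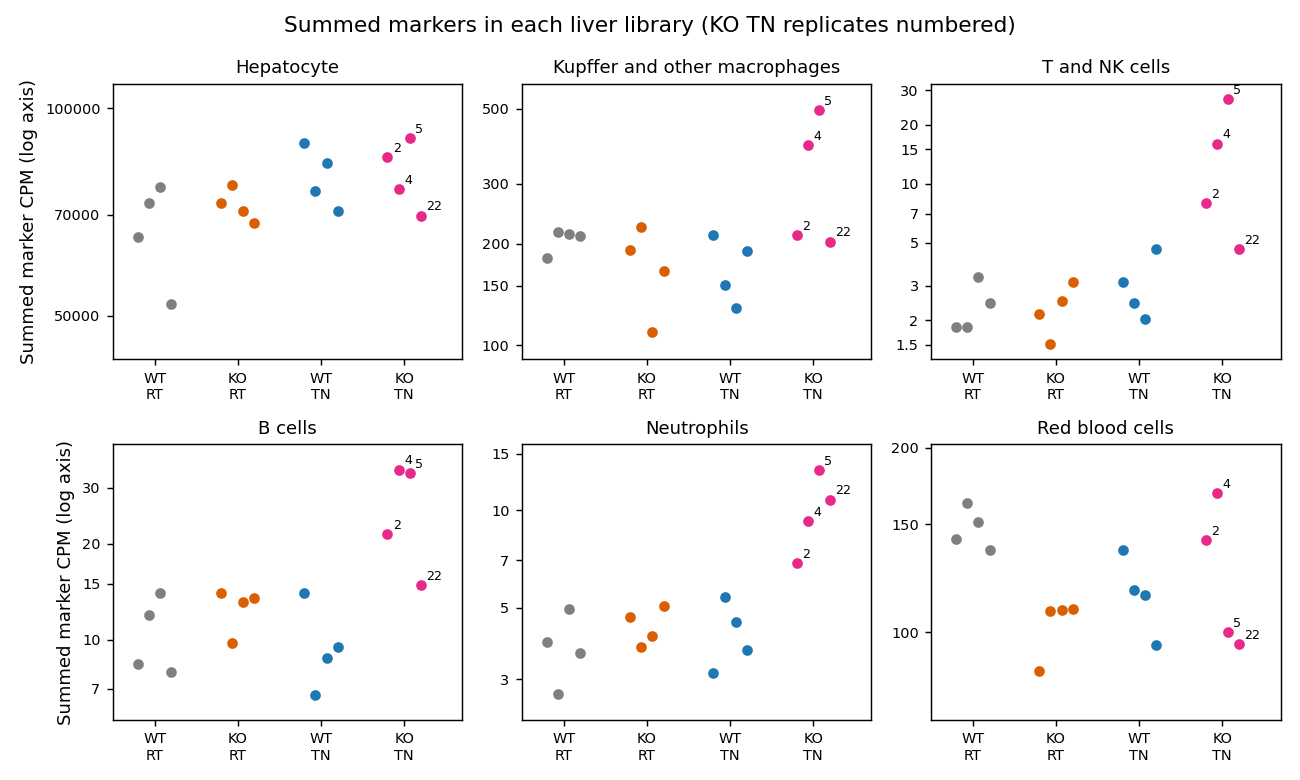
Summed CPM of marker lists for 6 cell types in each liver library, on log axes, with the KO TN replicates numbered. KO TN replicates 4 and 5 are the highest for macrophages, T and NK cells and B cells, while hepatocyte sums overlap in all groups.

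Without these 2 libraries, a choice made after seeing the marker sums, the count at an unadjusted p under 0.05 was 826 in place of 1290, with 404 positive and 422 negative. For the 17594 genes tested with all libraries, a uniform distribution of p-values gives 880, so 826 was no longer above that number. The median became 0.51 for macrophages and inflammation (20 of 25 above 0), 0.26 for the interferon response (19 of 25), 0.27 for the cell cycle (18 of 25) and 0.09 for fibrosis (14 of 23). A fall for macrophages and inflammation was built into the choice, since the macrophage markers that singled out these libraries belong to that list. Members at an unadjusted p under 0.05 went from 7 to 3 for macrophages and inflammation, from 8 to 1 for the interferon response, from 3 to 1 for the cell cycle and from 2 to 0 for fibrosis. Cxcl10 went from 2.30 to 0.45, Igtp from 1.98 to 0.15 and Mcm5 from 1.92 to 0.16. Smaller shifts were seen for Lyz2 (0.73), Vsig4 (0.83), Clec4f (0.71), Ifit3 (1.07), Mcm3 (0.99), Mcm4 (0.71) and Dcn (0.38). All 24 leading genes kept their sign, with interactions of 2.21 for Cmklr1, 1.12 for Wfdc17, 0.71 for Tmsb4x, 2.43 for Saa3, 1.88 for Gimap3, 1.53 for Serpina3g and 3.38 for Cd34. These genes were chosen by a low p in the same libraries, most of which remained, so a kept sign was favoured by the choice. What part the leukocyte markers had in these values was not tested.

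Acute-phase genes were split. Of 25 tested, 16 were above 0 with a median of 0.31, and 7 had an unadjusted p under 0.05, all positive, against 4.19% of all genes. Besides Saa3 and Serpina3g these were Saa1 (1.45, SE 0.49), Saa2 (1.79, SE 0.64), Apcs (1.03, SE 0.30), Hpx (0.60, SE 0.25) and S100a8 (2.98, SE 0.85). Saa1 and Saa2 encode the circulating amyloid A proteins, Apcs serum amyloid P, and Hpx the heme-binding hemopexin. For Saa1 the group means were 92.3 ± 49.1 CPM in WT RT, 44.1 ± 12.0 in KO RT, 108 ± 28.1 in WT TN and 141 ± 47.9 in KO TN (SD, n = 4). Apcs averaged 81.5 ± 14.9 CPM in KO TN and 37.8 to 47.9 CPM in the other groups. The list median rested on 1 library, since it was -0.02 without WT RT replicate 15. Without KO TN replicates 4 and 5 it was 0.23, with 5 members at an unadjusted p under 0.05.

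**Figure D4:**
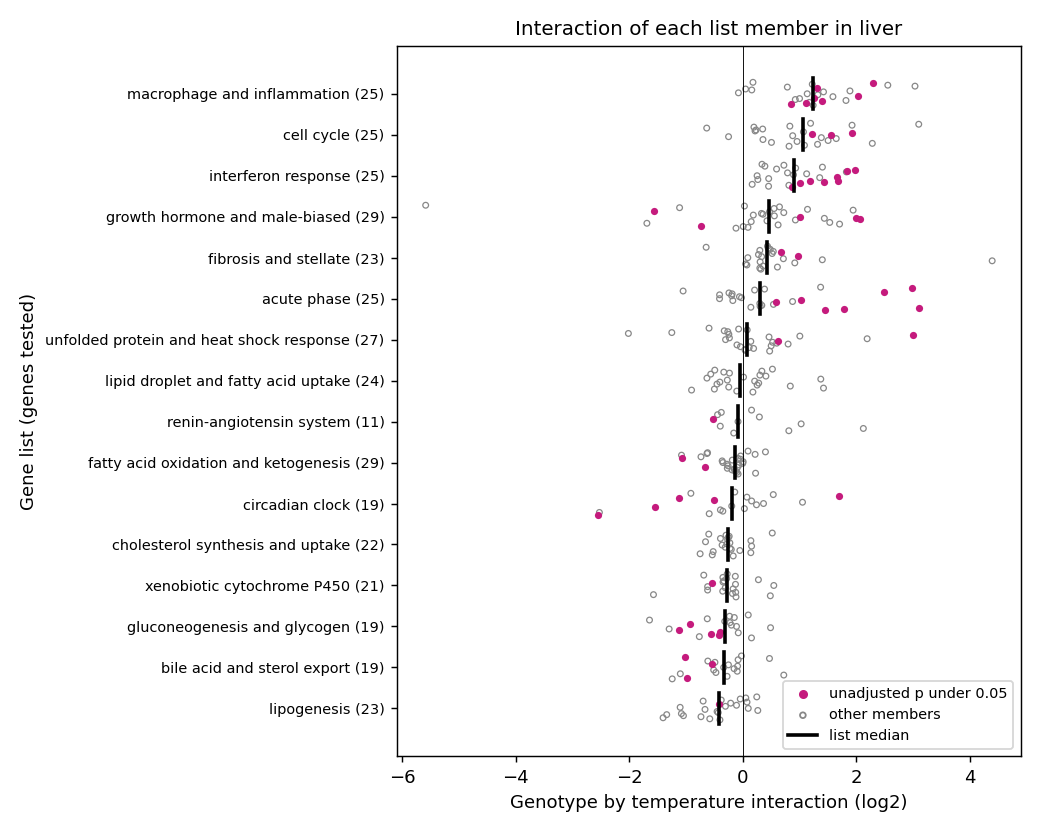
Interaction of every tested member of 16 gene lists in liver, on the log2 scale, with the list median as a bar. Filled points have an unadjusted p under 0.05 by edgeR, and none has an adjusted p under 0.05. Immune, cell cycle and fibrosis lists lie mostly to the right of 0, and lists of hepatocyte metabolism mostly to the left.

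Clock genes had 5 of 19 members at an unadjusted p under 0.05, against 7.33% of all genes in either direction, and their median was -0.19. Beside Cry1, negative values were found for Arntl, the activator BMAL1 (-2.55, SE 0.84), Nfil3, a repressor (-1.13, SE 0.42), and Hlf, a PAR domain activator (-0.51, SE 0.20). Bhlhe41, a repressor, was positive (1.70, SE 0.71). Arntl was 2.39, 4.72, 2.20 and 0.92 CPM in WT RT and 11.0, 13.2, 0.84 and 3.19 CPM in KO RT. Under TN housing it was 3.33, 3.91, 6.04 and 4.04 CPM in WT and 1.82, 1.99, 2.08 and 2.27 CPM in KO. The TN groups did not overlap, while at RT the KO libraries spanned the lowest and the highest values of all 16. Clock transcripts cycle over the day, and the labels give no time of collection.

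Genes of gluconeogenesis and glycogen had 16 of 19 members at or below 0 and a median of -0.32. At an unadjusted p under 0.05 there were 5, all negative, against 3.14% of all genes, and 2 with relative log expression scaling. Pcx, pyruvate carboxylase, the entry enzyme of gluconeogenesis, was 591, 549, 637 and 558 CPM in WT RT and 553, 468, 467 and 455 CPM in KO RT. At TN it was 842, 789, 831 and 777 CPM in WT and 479, 484, 419 and 446 CPM in KO. KO was lower without overlap at TN, and WT TN was above all other groups. The interaction was -0.56 (SE 0.16, adjusted p = 0.448 by edgeR, 0.0571 by DESeq2), and -0.54 without KO TN replicates 4 and 5. Ppp1r3b, which directs a phosphatase to glycogen, was 292 ± 27.9 CPM in WT RT, 241 ± 83.6 in KO RT, 497 ± 111 in WT TN and 188 ± 55.3 in KO TN (SD, n = 4). Its interaction was -1.13 (SE 0.36). The others were Fbp1, fructose-1,6-bisphosphatase (-0.42, SE 0.20), Pygl, liver glycogen phosphorylase (-0.39, SE 0.18), and Irs1, an insulin receptor substrate (-0.92, SE 0.43).

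Bile acid and sterol export genes had 17 of 19 members at or below 0, a median of -0.33, and 3 at an unadjusted p under 0.05, against 3.14% of all genes. These were Cyp8b1, which sets the share of cholic acid (-0.98, SE 0.45), Abcc3, a basolateral exporter (-0.55, SE 0.25), and Slco1a4, an uptake transporter (-1.01, SE 0.44). Abcc3 was 395, 543, 435 and 372 CPM in WT TN and 212, 232, 242 and 223 CPM in KO TN, a gap with no overlap, whereas 186 to 349 CPM in KO RT overlapped 274 to 439 CPM in WT RT. Xenobiotic cytochrome P450 genes had 18 of 21 at or below 0 and a median of -0.28. Only Cyp2f2 had an unadjusted p under 0.05 (-0.54, SE 0.24), against the same 3.14%. Without KO TN replicates 4 and 5 no bile acid gene and no P450 gene had an unadjusted p under 0.05, and the medians were -0.28 and -0.23.

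Lipid synthesis genes had 18 of 23 members at or below 0, where 50.6% of all genes were above 0, and a median of -0.41. Only Dgat2, the last step of triglyceride synthesis, had an unadjusted p under 0.05 (-0.41, SE 0.19). Among all genes, 3.14% had such a p with a negative sign. Without KO TN replicates 4 and 5 Dgat2 was -0.31, and 0 members had an unadjusted p under 0.05. Fasn, fatty acid synthase, was 1001, 1148, 253 and 1129 CPM in WT RT, 515, 707, 1019 and 727 CPM in KO RT, 526, 882, 1295 and 4170 CPM in WT TN and 702, 510, 557 and 515 CPM in KO TN. All groups overlapped, and a single library, WT TN replicate 24, was more than 3 times the next highest. The interaction of Fasn was -1.34 (SE 0.83, adjusted p = 0.789) and -0.41 without that library. The medians of lipogenesis and of cholesterol synthesis also changed when it was left out, from -0.41 to -0.17 and from -0.26 to -0.02. For cholesterol synthesis, 18 of 22 members were at or below 0 and 0 had an unadjusted p under 0.05.

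Scd1, the stearoyl-CoA desaturase, was 31750, 26590, 20930 and 40130 CPM in WT RT and 18150, 14810, 24660 and 21780 CPM in KO RT. In the TN mice it was 39210, 42070, 42660 and 53510 CPM in WT and 19270, 30650, 16810 and 19640 CPM in KO. KO was lower without overlap at TN and with overlap at RT, and the interaction was -0.45 (SE 0.29, adjusted p = 0.793). Srebf1, the transcription factor that drives lipogenesis, had -0.40 (SE 0.31), and -0.17 without WT TN replicate 24. Scd1 was -0.68 without KO TN replicate 4.

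Lipid uptake and storage genes had interactions on both sides of 0. Cd36, a fatty acid transporter, was 192, 108, 136 and 167 CPM in WT RT and 87.4, 51.5, 53.1 and 86.0 CPM in KO RT. The TN values were 226, 268, 252 and 158 CPM in WT and 76.7, 136, 93.5 and 116 CPM in KO. KO lay below WT without overlap at both temperatures, by -1.11 at RT and -1.10 at TN, and the interaction was 0.02 (95% interval -0.66 to 0.69). Plin2, the coat protein of hepatic lipid droplets, had 0.18 (95% interval -0.31 to 0.67). Cidec, which enlarges lipid droplets, was 87.6, 21.9, 40.6 and 52.8 CPM in WT RT and 4.60, 1.00, 8.91 and 13.1 CPM in KO RT. Thermoneutral libraries held 53.1, 126, 141 and 31.2 CPM in WT and 11.8, 37.2, 12.9 and 23.1 CPM in KO. The genotypes were apart at RT and overlapped at TN, and the interval of the interaction ran from -1.32 to 3.00. Over the list, 12 of 24 members were above 0, the median was -0.04, and 0 had an unadjusted p under 0.05.

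Fatty acid oxidation genes had 23 of 29 members at or below 0 and a median of -0.14. Ehhadh, the peroxisomal bifunctional enzyme (-0.66, SE 0.21), and Cyp4a10, a fatty acid hydroxylase (-1.07, SE 0.49), had an unadjusted p under 0.05, where 3.14% of all genes did with a negative sign. Ehhadh was 701, 614, 811 and 450 CPM in WT TN and 367, 364, 331 and 403 CPM in KO TN, with no overlap, and 347 to 517 CPM over the RT libraries. The unfolded protein and heat shock list had 16 of 27 above 0 and a median of 0.08. Xbp1, its central transcription factor, was positive (0.62, SE 0.23), as was Asns, asparagine synthetase (3.00, SE 1.33). Asns was scarce, with a mean of 0.94 CPM and no count in WT TN replicate 7, and its interaction was 4.62 without WT TN replicate 24. Xbp1 was 135 to 181 CPM in WT TN and 196 to 316 CPM in KO TN, and the RT groups overlapped.

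Growth hormone and male-biased genes had 23 of 29 above 0 and a median of 0.47, with 3 positive and 2 negative members at an unadjusted p under 0.05, against 7.33% of all genes. The positive ones, Mup9, Mup11 and Mup20, encode major urinary proteins. Mup20 averaged 3117 ± 807 CPM in WT RT, 1775 ± 509 in KO RT, 1490 ± 519 in WT TN and 1703 ± 488 in KO TN (SD, n = 4), so WT RT was the group that stood higher. Its interaction was 1.01 (SE 0.38), and 0.64 without KO TN replicates 4 and 5. The negative ones were Stat5b, the transcription factor downstream of the growth hormone receptor (-0.73, SE 0.24), and Elovl3, a fatty acid elongase (-1.56, SE 0.64). Of the 11 renin-angiotensin genes tested, 5 were above 0 and the median was -0.08. Only Enpep, the aminopeptidase that trims angiotensin II, had an unadjusted p under 0.05 (-0.52, SE 0.17), where 3.14% of all genes did with a negative sign. Enpep was 70.1 to 97.3 CPM in WT TN, 66.9 to 70.8 CPM in KO TN, 62.8 to 83.1 CPM in WT RT and 76.2 to 88.5 CPM in KO RT.

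List medians close to 0 depended on single libraries. The median of lipid uptake and storage ran from -0.17 to 0.12 when 1 library was left out, that of the unfolded protein list from -0.01 to 0.16, that of the renin-angiotensin list from -0.21 to 0.03 and that of the clock from -0.31 to -0.04. Fatty acid oxidation ran from -0.28 to -0.06 and cytochrome P450 from -0.34 to -0.11. Among the positive lists, the range was 0.97 to 1.37 for macrophages and inflammation, 0.54 to 1.12 for the interferon response, 0.52 to 1.19 for the cell cycle, 0.26 to 0.59 for fibrosis and 0.29 to 0.66 for growth hormone and male-biased genes. The lowest values for the interferon and cell cycle lists came without KO TN replicate 5, that for fibrosis without WT TN replicate 1 and that for growth hormone genes without WT RT replicate 18. Gluconeogenesis ran from -0.43 to -0.27 and bile acid genes from -0.48 to -0.23, so both kept their sign.

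The 1290 genes at an unadjusted p under 0.05 were sorted by shape. Of the 737 positive ones, 600 (81.4%) had opposite signs of KO minus WT at RT and TN, 113 (15.3%) had the same sign and were larger at TN, and 24 (3.26%) had the same sign and were larger at RT. Of the 553 negative ones, 394 (71.2%) had opposite signs, 132 (23.9%) were larger at TN and 27 (4.88%) larger at RT. A choice by the size of the interaction favours opposite signs, so these shares describe the chosen genes only.

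A second description asked which group stood apart, by counting genes whose 4 libraries were all above or all below the other 12. KO TN was wholly above for 84 genes (0.477%) and wholly below for 113 (0.642%). WT TN was wholly above for 69 (0.392%) and wholly below for 47 (0.267%). The RT groups had fewer: KO RT 28 above (0.159%) and 46 below (0.261%), and WT RT 23 above (0.131%) and 30 below (0.171%). Among the KO TN genes, 28 of those above and 46 of those below had an unadjusted p under 0.05 for the interaction. Wfdc17, Tmsb4x and Cmklr1 were among those above, and Pm20d1 was among those below.

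Because the RT and TN mice are different animals, genes chosen at one temperature could be looked up at the other. At TN, 560 genes (3.18%) differed between genotypes at an adjusted p under 0.05 by edgeR, and at RT 15 genes (0.0853%). Of the 560, 478 (85.4%) had the same sign at RT, compared with 60.9% of all genes tested. An unadjusted p under 0.05 at RT with the same sign was found for 201, where 1799 genes (10.2%) had such a p in either direction, and 4 reached it with the opposite sign. The median difference was 0.70 at TN, a value raised by the choice of genes, and 0.25 in the same direction at RT. Genes lower in KO at TN carried over more often, 294 of 325 (90.5%), than genes higher in KO, 184 of 235 (78.3%). The difference between these shares was not tested. All 15 genes chosen at RT had the same sign at TN, 11 of them with an unadjusted p under 0.05, and their median went from 1.06 at RT to 0.66 at TN.

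Of the genes called higher in KO at TN, 51 had the opposite sign at RT. The 4 with an unadjusted p under 0.05 at RT were Cmklr1, Saa3, Rgs2 and Gimap3. They are among the 12 leading positive genes, a place that opposite differences at the 2 temperatures favour. Their adjusted p at TN was 0.0454, 0.0334, 0.0388 and 0.0208 by edgeR, and their unadjusted p at RT was 0.000995, 0.0204, 0.0244 and 0.0411. These counts depended on the TN libraries. Without KO TN replicate 4 the TN comparison called 178 genes, of which 93.3% had the same sign at RT, and without both replicates 4 and 5 it called 114, of which 96.5% had the same sign.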

How the data were processed

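The deposited values were raw counts per gene and library, and the authors' files hold whole numbers. The submitters' processing notes name fastp, STAR 2.6.1d, featureCounts 1.5.0-p3 and GRCm38, with no roles. The annotation and the strand setting are not given in the sources used here, so overlapping and antisense genes were not separated. Of 56748 Ensembl identifiers, 52073 (91.8%) had a symbol, which covered at least 96.3% of the counts of each liver library, and 52125 were found in GENCODE M21 (GRCm38), the source of coordinates. Groups came from the sample titles.

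The 16 liver libraries were fitted together in edgeR 4.0.16 (R 4.3.3) by quasi-likelihood F tests with robust estimation, after TMM scaling and filterByExpr (minimum count 10), with a separate mean for each group. Tests were two-sided, p-values were adjusted by Benjamini-Hochberg over all genes, and the threshold was 0.05. The script was tested on simulated data. BAT and eWAT were fitted separately. Marker sums use plain CPM.

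Genes were named by a rule: Agt and 6 lipid genes, the 12 with the lowest p in each direction with a mean of at least 1 CPM and an established symbol, genes called by DESeq2 with the same mean and symbol, and the 2 with the lowest p in each list. A gene that the rule selects is not reported here. Other list members are named only where they complete a count, chosen after their values were seen. Members and lists were chosen with earlier results of these data known. Alternatives were RLE scaling, no filter, a filter of 1 CPM in 4 libraries, DESeq2 1.42.0 (without the filter, so tool and filter both differ), limma-voom (limma 3.58.1), no robust estimation and leaving out each library.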

Additional observations from a re-analysis of the deposited data

Results flagged for a closer look

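Among 35 genes and 4 groups of 4 libraries each, 140 sets of values were examined, and in 10 of them a single library lay far from the other 3. Chance gives about 1 in 20. In WT RT, replicate 18 was highest for Mycl (10.2 CPM, next 6.30) and lowest for Aldh5a1 (65.7 CPM, next 92.7), and replicate 15 was lowest for Fasn (253 CPM, next 1001) and for Nedd4l (25.1 CPM, next 33.9). Replicate 12 was highest for Srp54b (3.94 CPM, next 0.37) and replicate 11 for Plin2 (877 CPM, next 611). In WT TN, replicate 24 was lowest for Cry1 (8.26 CPM, next 16.7), and replicate 6 was highest for Adra1b (88.9 CPM, next 78.05). KO RT replicate 9 was lowest for Col4a3bp (47.7 CPM, next 57.4), and KO TN replicate 5 was highest for Pitrm1 (28.5 CPM, next 26.5).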

How the results depend on the processing

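No alternative of edgeR or limma-voom called a gene for the interaction in liver, whereas DESeq2 called 20, and 25 in BAT and 10 in eWAT. At an unadjusted p under 0.05 the liver count was 2196 without a filter on low counts and 826 without KO TN replicates 4 and 5, an alternative added after seeing the data, and it ran from 950 to 1513 when 1 library was left out. Genes called at TN were 1165 with DESeq2, 178 to 605 with 1 library left out and 114 without KO TN replicates 4 and 5. Genes called at RT were 25 without a filter, 9 with at least 1 CPM in 4 libraries, 208 with DESeq2, and 4 (without WT RT replicate 18) to 32 (without WT TN replicate 24) with 1 library left out. The share of TN genes with the same sign at RT was 81.6% with DESeq2, 76.4% to 93.3% with 1 library left out and 96.5% without KO TN replicates 4 and 5. Of 63 named genes, 60 kept their sign in all alternatives. Most of the 63 were chosen by a low p in these same libraries, which favours a kept sign. Agt was 0.003 without KO TN replicates 4 and 5. Cd36 was -0.11 without them and -0.14 to 0.15 with 1 library left out, and Plin2 was 0 to 0.30 with 1 library left out. The cause was not tested. Scaling moved the median over all genes by less than 0.1, from 0.01 to 0.02 with RLE. Depth limits genes under 1 CPM most, where the median half-width of the interval was 3.54. No paired analysis was possible because the 4 liver groups share no replicate number.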
